A study of Drosophila melanogaster with 3 samples.

Results

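The genes of the cytosolic ribosome were taken as the protein-coding genes of the Ensembl BDGP6 annotation whose symbol begins with RpL or RpS, with the mitochondrial mRp genes left out. The rule gave 92 of the 13945 protein-coding genes on the 6 chromosome arms of Drosophila melanogaster. By symbol alone, 54 of them were counted for the large subunit and 38 for the small subunit. Genes with symbols ending in -like were kept, although RpL24-like at least is related to a ribosome assembly factor. The 92 genes were examined in a map of E(z)-GFP on chromatin, made by chromatin immunoprecipitation and sequencing. All samples form 1 group of 3 biological replicates, and each is whole prepupae of a transgenic line that stably carries E(z) with GFP at its C-terminus. Males and females were pooled, the age is labelled unknown, and the chromatin was sheared by sonication. The sample description gives a precipitation with anti-GFP, whereas the antibody field gives E(z). The promoter that drives the fusion is not given in the labels, signal from all tissues of the animal is mixed, and the experiment that the labels name as a possible control is not analysed here.

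Cytosolic ribosomes are built from many different proteins that must be made in balance, and in growing animals their genes are among the most actively transcribed. In Drosophila many of these genes share a polypyrimidine initiator, the TCT motif, at the start of transcription, and loss of 1 copy of many of them gives the Minute phenotype of slow growth and thin bristles. E(z) is the catalytic subunit of Polycomb repressive complex 2, which methylates histone H3 on lysine 27 and is best known for silencing developmental regulators such as the Hox genes.

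The promoters of 8 of these genes are printed because the positions reported below refer to them. They are RpS27, RpS10b, RpL24, RpL34b, RpL14 and RpS28b, which were among the best ranked of the genes with an E(z)-GFP summit within 250 bp of the start, and RpL10Aa and RpL10Ab, which had none within 1 kb. Each runs 5′ to 3′ on the gene's strand for 100 bases before the outermost annotated start and 30 bases from it, and is taken from the RefSeq copy of genome release 6. Capitals mark matches to the 6 motifs that are described with the motif counts, and RpL24, RpS28b and RpL10Aa had no match in these windows. In dm6 the windows are chr3R:25247485-25247614 on the minus strand for RpS27, chrX:19597931-19598060 on the plus strand for RpS10b, chr2L:13395102-13395231 on the minus strand for RpL24 and chr3R:9401197-9401326 on the minus strand for RpL34b. Those of RpL14, RpS28b, RpL10Aa and RpL10Ab are chr3L:8600906-8601035, chrX:9554523-9554652, chr3R:15037266-15037395 and chr3L:11822751-11822880, all on the plus strand.
RpS27: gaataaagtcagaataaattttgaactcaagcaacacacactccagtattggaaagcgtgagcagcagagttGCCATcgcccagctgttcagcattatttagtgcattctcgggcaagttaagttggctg
RpS10b: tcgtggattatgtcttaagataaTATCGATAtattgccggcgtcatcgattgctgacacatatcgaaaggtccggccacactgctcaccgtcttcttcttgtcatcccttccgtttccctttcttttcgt
RpL24: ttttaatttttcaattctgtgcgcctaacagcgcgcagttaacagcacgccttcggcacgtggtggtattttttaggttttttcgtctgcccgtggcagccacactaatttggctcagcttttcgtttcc
RpL34b: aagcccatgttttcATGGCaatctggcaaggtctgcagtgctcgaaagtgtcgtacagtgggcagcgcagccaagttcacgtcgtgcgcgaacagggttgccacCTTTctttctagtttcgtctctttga
RpL14: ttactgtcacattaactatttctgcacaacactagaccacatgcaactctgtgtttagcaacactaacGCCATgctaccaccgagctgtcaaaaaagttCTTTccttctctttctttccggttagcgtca
RpS28b: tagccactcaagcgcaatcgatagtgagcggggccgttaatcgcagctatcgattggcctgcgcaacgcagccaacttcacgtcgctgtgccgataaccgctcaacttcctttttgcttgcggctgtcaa
RpL10Aa: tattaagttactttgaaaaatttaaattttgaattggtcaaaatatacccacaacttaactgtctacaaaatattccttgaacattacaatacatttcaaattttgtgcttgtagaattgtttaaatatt
RpL10Ab: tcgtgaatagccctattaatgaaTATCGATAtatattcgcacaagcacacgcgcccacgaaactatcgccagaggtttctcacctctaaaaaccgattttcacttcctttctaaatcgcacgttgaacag

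The authors' deposited lists give each peak an interval, a summit and a signal value. The optimal list holds the 5623 peaks that passed their threshold on reproducibility, and relaxed lists, with 30000 regions each that reach down into background, were deposited for each replicate and for the pooled reads. Of the optimal peaks, 3141 were found in all 3 replicates, meaning that the summit lay inside one of the 5623 strongest peaks of each. Depth cannot be read from these lists, so a peak is described by its rank by signal within its list, with rank 1 the strongest. Intervals given below are exact binomial (Clopper-Pearson) 95% intervals and cover the counting of genes only.

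E(z)-GFP summits lay at the starts of 46 of the 92 ribosomal protein genes (50%, 95% interval 39.4% to 60.6%), counting optimal summits at most 1 kb away from an annotated transcription start site (TSS). Over all protein-coding genes the share was 16.1%, and over the 13853 other genes it was 15.9%. The large subunit contributed 26 of 54 genes (48.1%, interval 34.3% to 62.2%) and the small subunit 20 of 38 (52.6%, interval 35.8% to 69.0%). With the distance narrowed to 100 bp, 43 of the 46 genes remained (46.7% of 92, against 4.70% of the other genes and 4.98% of all genes). Widened to 5 kb, the count was 53 (57.6%, against 31.9% of the other genes and 32% of all genes). The difference from the other genes was 42.0 percentage points at 100 bp and 34.1 points at 1 kb, so nearly all of the summits counted at 1 kb lay in the innermost 100 bp.

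The same share was taken in each replicate over its 5623 strongest peaks. Replicate 1 had a summit at 45 ribosomal protein genes (48.9%, against 16.4% of other genes and 16.6% of all genes), replicate 2 at 45 (48.9%, against 16.7% and 16.9%) and replicate 3 at 61 (66.3%, against 19.4% and 19.7%). Replicate 3 was the highest of the 3 both for ribosomal protein genes and for the other genes. The mean share was 54.7 ± 10.04% for ribosomal protein genes and 17.5 ± 1.66% for other genes (SD, n = 3). The difference of 37.2 ± 8.40 percentage points was positive in 3 of 3 replicates (two-sided exact sign-flip permutation test, p = 0.25, the smallest p that 3 replicates can give). Large subunit genes averaged 55.6 ± 9.80% and small subunit genes 53.5 ± 10.96%, a difference of 2.05 ± 4.60 points with the large subunit higher in 2 of 3 replicates (the same exact test, p = 0.75). The sign of that small difference turned to -0.487 points without replicate 1. These p-values measure only the spread between these 3 samples.

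**Figure D1:**
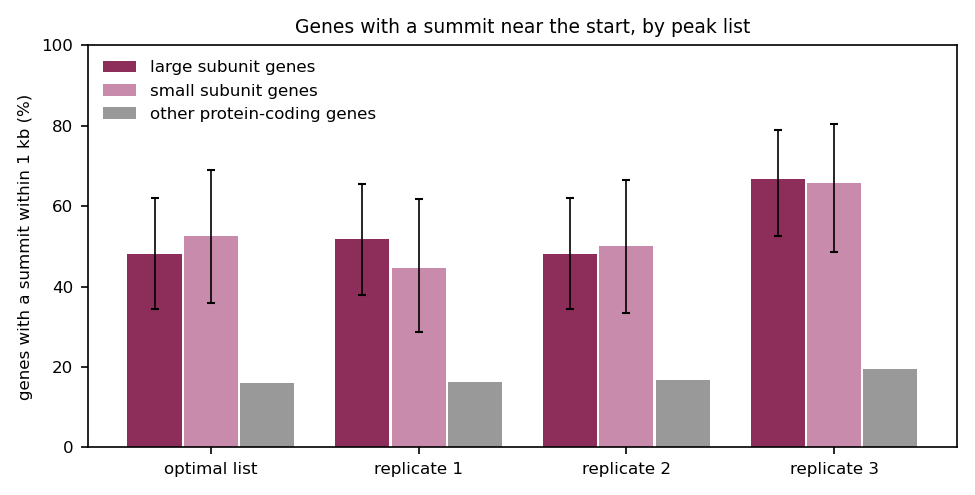
Share of genes (%) with a summit within 1 kb of a TSS in the optimal list and in the 5623 strongest peaks of each replicate, for large subunit genes (n = 54), small subunit genes (n = 38) and other protein-coding genes (n = 13853); error bars are exact binomial 95% intervals and are not drawn for the other genes. Both subunits lie between 44.7% and 66.7% in every list, and the other genes lie between 15.9% and 19.4%.

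Summits at ribosomal protein genes sat almost on the start itself. The median distance between summit and TSS was 24 bp over the 46 genes, and 177 bp over the 2206 other genes with a summit within 1 kb. The offset is negative upstream of the TSS, and its median was -22.5 bp (quartiles -39.75 and 1.75 bp) for ribosomal protein genes and -134 bp (quartiles -269.75 and -3 bp) for other genes. Within 50 bp of a TSS lay 38 of the 46 summits (82.6%), against 374 of 2206 for other genes (17.0%). Of the 43 within 100 bp, the farthest upstream was at -86 bp and the farthest downstream at 69 bp. In all, 33 summits were upstream (71.7%, against 75.3% for other genes) and 13 downstream of the nearest start of the gene. By annotation 26 lay upstream of the gene and 20 in its 5' UTR, the untranslated leader. The median distance was 27 bp for large subunit genes and 18.5 bp for small subunit genes.

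Each replicate placed the summits close to the start. In the strongest peaks of replicates 1, 2 and 3 the median distance at ribosomal protein genes was 39, 24 and 21 bp, and that at other genes was 193, 183 and 131 bp. The means of these medians were 28 ± 9.64 bp and 169 ± 33.3 bp (SD, n = 3), and the median of the ribosomal protein genes was the lower in 3 of 3 replicates. For 42 of the 46 genes all 3 replicates had a peak within 1 kb, and the SD of the strongest peak's offset over the replicates had a median of 18.4 bp. It was at most 50 bp for 35 of them. Those above it included RpL19, RpL23, RpL32, RpL40, RpLP1 and RpS28b, and the largest SD, 436 bp at RpS28b, came from replicate 1, where the strongest peak lay at -786 bp while replicates 2 and 3 had it at -31 and -32 bp.

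**Figure D2:**
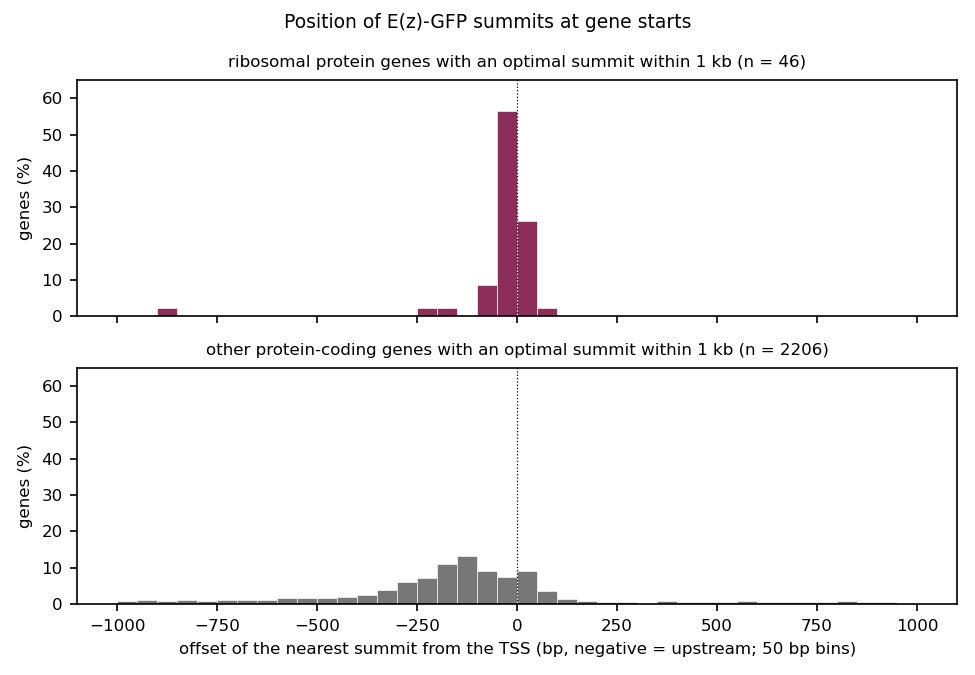
Offset of the nearest optimal summit from the TSS (bp, negative upstream, 50 bp bins) for the 46 ribosomal protein genes (upper) and the 2206 other protein-coding genes (lower) with a summit within 1 kb; bars are percent of genes. The bin from -50 to 0 bp holds 56.5% of the ribosomal protein genes and 7.43% of the other genes, whose highest bin, from -150 to -100 bp, holds 13.2%.

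The peaks at ribosomal protein genes were of middling strength. Their ranks in the optimal list ran between 102 at RpS19b and 5567 at RpL40, with a median of 2287, and the best peak of the other genes with a summit had a median rank of 2127.5. Only 2 of the 46 genes (4.35%) were among the 500 strongest peaks, against 17.1% of the other genes with a summit. In the strongest 1000 the shares were 21.7% and 28.8%, and in the strongest 2811, which is the upper part of the list by number, 69.6% and 61.2%. Few of these genes thus carried a peak of the highest class, and most lay in the upper and middle ranks.

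The relaxed lists, which reach down to background regions, gave another picture of the ranks. A relaxed peak within 1 kb was present at 60, 56 and 73 ribosomal protein genes in replicates 1, 2 and 3, where all protein-coding genes had one in 37.3%, 38.2% and 43.7% of cases. The median rank of the best such peak was 3772.5, 2836 and 2537 at ribosomal protein genes, and 6829, 7169 and 6668 at other genes. Across ribosomal protein genes with a peak in both lists, Spearman's rho of the ranks was 0.829 between replicates 1 and 2 (n = 50 genes), 0.761 between 1 and 3 (n = 54) and 0.735 between 2 and 3 (n = 50). These correlations describe genes within the same 3 libraries, and the genes are not independent replicates. Among genes with a peak in both lists of a pair, the order by strength was thus broadly alike. Genes missing from a list do not enter these values. Among the 42 genes with a peak in all 3, replicate 3 gave the best rank for 23, replicate 2 for 12 and replicate 1 for 7.

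At most of the 46 genes the optimal peak was present in every replicate. The summit was found in all 3 replicates for 35 genes, in 2 for 8, in 1 for 2, RpL40 among them, and in none for RpL10. Counting only optimal peaks found in all 3, 36 genes had a summit within 1 kb (39.1%, against 10.1% of all protein-coding genes). The count exceeds 35 by RpS28b, which had a further summit upstream that was found in every replicate.

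Of the small subunit genes, RpS27 had the strongest peak at its own start. RpS27 encodes a zinc finger protein of the small subunit, and its peak at chr3R:25247395-25247675 ranked 278 in the optimal list and 438, 165 and 418 in replicates 1, 2 and 3, with the summit 11 bp upstream. RpS10b, a gene of the small subunit on the X chromosome, ranked 638 (860, 668 and 509 in the replicates), with its summit at chrX:19598032, which is 1 bp inside the 5' UTR. RpS28b ranked 904 (815, 667 and 637) with the summit at -31 bp, but the peak ranked 815 in replicate 1 lay at -786 bp. RpS27 and RpS10b thus had a peak at the start within the strongest 1000 of every replicate. RpS28b had one there in replicates 2 and 3.

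Further small subunit genes among the 20 best ranked were RpS25, RpS4, RpS5a, RpS21 and RpS19a. RpS25, known from other species as a factor in internal initiation on viral RNAs, ranked 1178 (1633, 904 and 1615) with the summit at -39 bp. RpS4 ranked 1231 (2104, 1604 and 527) at -20 bp, with its best rank in replicate 3. RpS5a, a protein at the mRNA exit channel whose gene hosts 14 annotated snoRNAs, ranked 1367 (1473, 1128 and 1301) at -40 bp. RpS21, whose loss causes overgrowth of the blood-forming organ in larvae, ranked 1759 (2354, 1699 and 3247) at 17 bp. The ranks of RpS5a varied least among these 5 genes.

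RpS19b had the best rank of all 92 genes but not at its own start. The summit at chr3R:23934425 ranked 102 in the optimal list and 162, 81 and 114 in the replicates (mean 119 ± 40.7, SD, n = 3). It lay 895 bp upstream of the TSS of RpS19b and nearer to the start of CG5854, and the 3 replicates placed it at -896, -899 and -895 bp. Its position had the lowest SD over the replicates among the 42 genes, 2.08 bp, and it was the only summit of the 46 beyond 250 bp.

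Of the large subunit genes, RpL24 had the strongest peak. RpL24, which lies at the bridge between the subunits, ranked 666 (1060, 770 and 354) with the summit 15 bp inside the 5' UTR at chr2L:13395116. RpL41, which encodes the smallest ribosomal protein, ranked 720 (988, 831 and 383) at -40 bp. RpL34b ranked 728 (771, 450 and 1325) at -86 bp and was the only gene with 3 optimal summits within 1 kb. The first 2 of these genes had their best rank in replicate 3 and RpL34b its poorest.

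RpL14, RpL32 and RpL30 followed. RpL14, a known Minute gene, had one of the most even sets of ranks, at 896 in the optimal list and 920, 1042 and 1038 in the replicates (mean 1000 ± 69.3, SD, n = 3), with the summit at -36 bp. RpL32, the gene often used as a reference in expression assays under its older name rp49, ranked 987 (868, 1124 and 820). Its optimal summit lay at -167 bp, nearer to the start of the divergent gene CG7943 than to its own. In replicates 1, 2 and 3 the strongest peak lay at -123, -177 and -49 bp, and only that of replicate 2 was nearer to CG7943. RpL30 ranked 1034, but its replicate ranks of 2135, 2219 and 268 set replicate 3 far above the other two.

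RpL8, RpL13A and RpL19 were also among the 20 best ranked. RpL8, which contributes to the peptidyl transferase centre, ranked 1559 (2520, 1346 and 1018) at -16 bp. RpL13A ranked 1599 at -52 bp, with ranks of 1698 and 1388 in replicates 1 and 3 and no peak within 1 kb in the relaxed list of replicate 2. RpL19, another known Minute gene, ranked 1842 (1467, 4253 and 2935) at -24 bp.

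The ribosomal stalk, which recruits the translational GTPases, is formed by the P proteins RpLP0, RpLP1 and RpLP2 with RpL12 at its base. RpLP0 ranked 998 (820, 1198 and 1324) at -24 bp, RpLP1 ranked 2752 (2812, 3149 and 3153) at -28 bp and RpL12 ranked 4432 (4345, 4689 and 5451) at 34 bp. RpLP2 had no optimal summit within 1 kb, no peak in replicate 2 and ranks of 5254 and 9731 in replicates 1 and 3. The 4 genes of this single structure thus ranged between the upper part of the optimal list and absence from it.

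RpL40 and RpS27A encode ribosomal proteins that are made as fusions with ubiquitin. RpL40 had the lowest-ranked optimal peak of the 46, at 5567 (11160, 8533 and 4309), with its summit 69 bp inside the 5' UTR, and RpS27A had no peak within 1 kb in any list. A few other genes with a well-known role are given as examples and do not stand for the rest. RpS6, the substrate of S6 kinase, ranked 3551 (7058, 4460 and 2206), and RpL3, of the peptidyl transferase centre, ranked 2509 with 4492 and 910 in replicates 2 and 3 and no peak in replicate 1. RpL5 and RpL11, which join the ribosome together with the 5S rRNA, had no optimal summit.

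**Figure D3:**
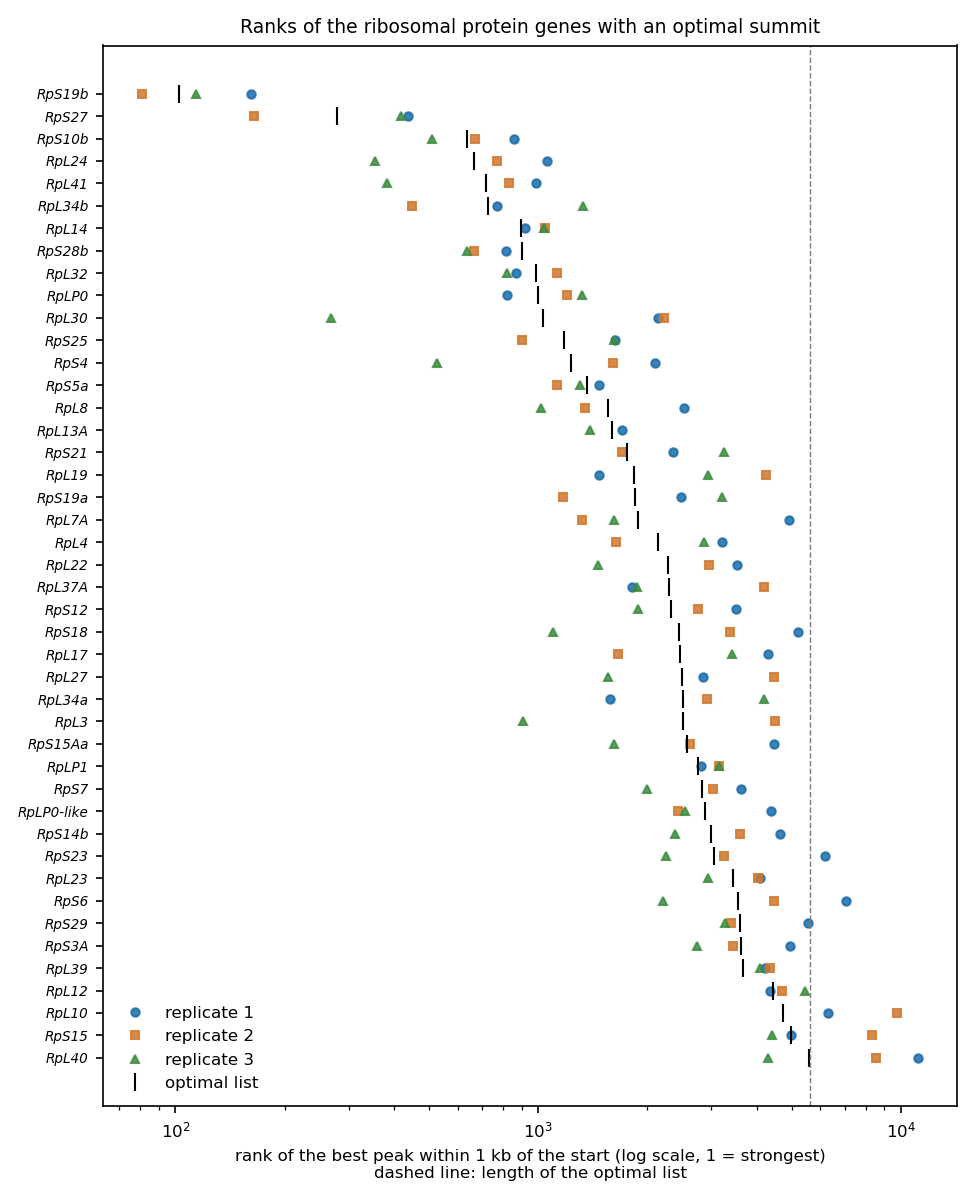
Rank of the strongest peak within 1 kb of a TSS (log scale, 1 is the strongest) in each replicate's relaxed list (symbols) and in the optimal list (black ticks) for 44 of the 46 ribosomal protein genes with an optimal summit, ordered by optimal rank; the dashed line marks rank 5623. RpS19b stands at 102 and RpL40 at 5567, and all 3 replicates of RpS19b lie between ranks 81 and 162.

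Copies of a ribosomal protein gene, grouped by symbol, had a summit at about the share of genes without a copy. In 13 families with more than 1 copy, 13 of 27 copies had an optimal summit (48.1%), against 33 of 65 genes without a copy (50.8%). In 3 families more than 1 copy had a summit, in 7 families 1 copy had one, and in 3 families none had. With a summit at 50% of all 92 genes, families split in this way are common without any link between copies. No test of the split was made. Reads from near-identical copies may have been assigned to either, so the split between such copies is uncertain.

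RpL34, RpLP0 and RpS19 were the families with a summit at both copies. RpL34b ranked 728 and RpL34a 2507 (1574, 2919 and 4193), at -26 bp for RpL34a. RpLP0-like, whose product is related to the stalk protein, ranked 2885 (4378, 2427 and 2537), but its summit 74 bp upstream was nearer to the start of 14-3-3zeta, 13 bp away. RpS19a ranked 1844 (2480, 1168 and 3212) with its summit 2 bp inside the 5' UTR, and RpS19b was counted only through the summit at -895 bp. With a limit of 250 bp, RpL34 and RpLP0 remained as such families.

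In the 7 families with a summit at 1 copy the count was made by RpL22, RpL24, RpS5a, RpS10b, RpS14b, RpS15Aa and RpS28b. RpL22 ranked 2283 (3535, 2954 and 1461), and RpL22-like, known for its expression in the male germline, had its nearest optimal summit 1097 bp away. RpS15Aa ranked 2571 (4480, 2620 and 1623), whereas RpS15Ab had no peak in any list, and RpL24-like, related to a ribosome assembly factor, had none beside RpL24. RpS5b, a copy known for its expression in the female germline, had relaxed peaks ranked 9203, 6164 and 8457. RpS10a had a single relaxed peak, at rank 21969 in replicate 2. In these families the optimal list thus held 1 copy and left out the others, some of which had weak peaks.

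RpS14a and RpS14b are neighbouring copies on the X chromosome. The summit at -44 bp of RpS14b ranked 2994 (4648, 3593 and 2379), and it lay 1112 bp from the start of RpS14a, which had 1 relaxed peak, at rank 9625 in replicate 3. RpS28a and RpS28-like had relaxed peaks at 9867 and 4070, and at 20919 and 3537, in replicates 1 and 3. The summits lay 515 and 503 bp downstream of the start of RpS28a, and 728 and 763 bp downstream of that of RpS28-like. These genes are 304 and 424 bp long, so the summits lay beyond their ends. RpL10A, RpL37 and RpL7 were the families with no summit. RpL10Aa and RpL37-2 had no peak in any list, RpL10Ab had 3955 and 2932 in replicates 1 and 3, and RpL37-1 had 9313, 7459 and 9274. RpL7-like had a peak of rank 2300 at -406 bp in replicate 3 alone. That summit was nearer to the start of the divergent gene JhI-21, 284 bp upstream of RpL7-like. RpL7 is described with the genes without an optimal summit.

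The limit of 1 kb had little weight for the counts. Among the farthest summits inside it were those of RpL32 at 167 bp and RpS19b at 895 bp, and just outside it were RpL22-like at 1097 bp, RpS14a at 1112 bp and RpS28-like at 1653 bp. The last of these distances led to a summit of rank 5482 that was nearest to the start of numb. Between 250 and 1097 bp there was thus 1 gene, RpS19b.

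The 46 genes without an optimal summit were mostly far from one. Their nearest optimal summit lay at a median distance of 15360 bp, and 39 were over 5 kb, 32 over 10 kb and 19 over 20 kb from it. Distances over 5 kb are not particular to ribosomal protein genes, since only 32.0% of all protein-coding genes had an optimal summit within 5 kb. The median and the counts over 10 and 20 kb were not taken over other genes. Yet most of the 46 genes had a peak in some replicate. In the relaxed lists 12 of them had no peak within 1 kb in any replicate, 16 had one in 1 replicate, 15 in 2 and 3 in all 3. The 12 without a peak in any list included RpL6, RpL10Aa, RpL11, RpL21, RpL24-like, RpL35A, RpL37-2, RpS15Ab, RpS24, RpS26 and RpS27A. The pooled relaxed list held a peak at 11 of the 46. It brought the total to 57 of 92 (62.0%, against 35.2% of all genes), and within 100 bp to 52 of 92 (56.5%, against 13.9%).

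Absence from a list was not the same as a low rank elsewhere. RpL7, which has a divergent neighbour Ripalpha 30 bp away, ranked 951, 526 and 445 in replicates 1, 2 and 3, with summits at 31, 41 and 34 bp, and was in neither the pooled nor the optimal list. RpL31 ranked 671 and RpS16 904 in replicate 3, at 9 and -16 bp, and neither had a peak within 1 kb in the other two replicates. RpS20 ranked 1009 and 1075 in replicates 2 and 3, with summits at -189 and -190 bp, and RpL27A 1185 and 1173 at 7 and -1 bp. Both were missing from replicate 1. The summits of RpS20 lay nearer to the start of the divergent gene CG17271, 333 bp upstream of RpS20, than to its own. RpL23A ranked 1658 in replicate 1 alone, and RpL13 1314 in replicate 3 alone. Such genes thus had peaks near the start that were strong by rank in 1 or more replicates and not listed in another.

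These gaps were counted over all genes. A peak within the strongest 5623 of at least 1 replicate lay at 64 of 92 ribosomal protein genes (69.6%) and at 3495 of 13853 other genes (25.2%). Of these, 21 ribosomal protein genes (32.8%) and 823 other genes (23.5%) had no relaxed peak within 1 kb in some other replicate. The pooled relaxed list lacked 17 of the 64 (26.6%) and 640 of the 3495 (18.3%). Of the genes strong in all 3 replicates, 1 of 39 ribosomal protein genes, RpL7, and 23 of 1514 other genes were missing from the pooled list. Replicate 3 was involved most often, since 13 and 14 of its 61 ribosomal protein genes had no peak in replicates 1 and 2. The same held for other genes, where 397 and 363 of its 2686 had none there. A count of genes in the optimal list is therefore a count of listed peaks, and the reason for the gaps was not tested.

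**Figure D4:**
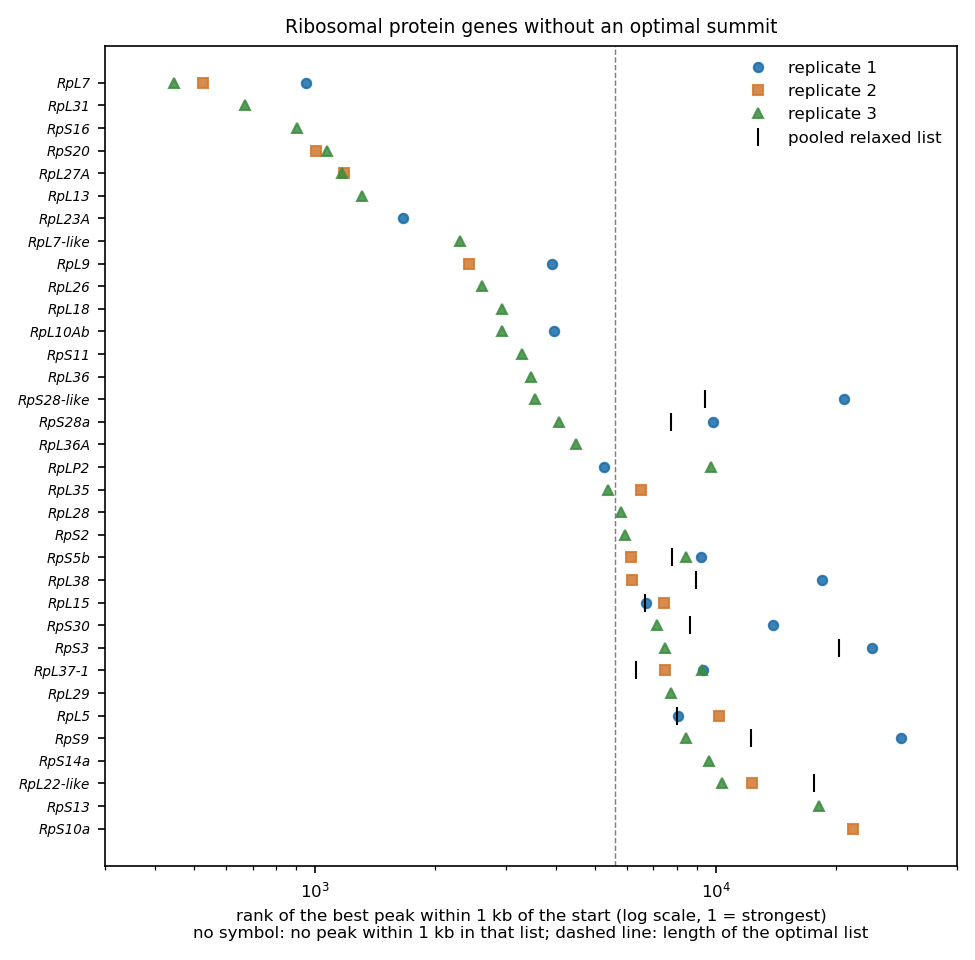
Rank of the strongest peak within 1 kb of a TSS (log scale) in each replicate's relaxed list (symbols) and in the pooled relaxed list (black ticks) for the 34 ribosomal protein genes that had no optimal summit but a peak in at least 1 replicate; a missing symbol means no peak in that list, and the dashed line marks rank 5623. RpL7 has all 3 replicates between ranks 445 and 951 and no pooled peak, and 16 genes have a single replicate.

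Features of the genes with and without a summit were set side by side, and none was tested. They were not counted over the other genes, so none can be called particular to ribosomal protein genes. Another protein-coding gene began within 1 kb in the opposite direction at 32 of the 46 genes with a summit and at 23 of the 46 without. The summit was nearest to the gene's own TSS in 42 of 46 cases, and RpS19b, RpL32 and RpLP0-like were among the exceptions. A further protein-coding TSS lay within 1 kb of the summit in 32 cases, so that these summits could be counted for more than 1 gene. Genes for snoRNAs lay within 15 of the genes with a summit and 13 of those without, and the median gene length was 1419.5 bp and 1188.5 bp.

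The summits were spread over all 6 chromosome arms. By arm, 10 of 14 ribosomal protein genes had one on X, 6 of 19 on 2L, 10 of 21 on 2R, 7 of 14 on 3L and 12 of 23 on 3R. RpS3A, the only one on chromosome 4, also had one. Among all protein-coding genes the share ran between 12.5% on chromosome 4 and 17.1% on X. Arm 2L had the lowest share of ribosomal protein genes with a summit among the 5 large arms.

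Other genes of the translation machinery were set beside these. Of 73 mitochondrial ribosomal protein genes 16 had an optimal summit within 1 kb (21.9%), 1 of them within 100 bp, and the median distance was 252 bp. Peaks counted for them included some of the strongest of the list, at mRpS23 with rank 6, mRpL41 with rank 16 and mRpS10 with rank 19. The nearest summits of these genes lay at -377, -142 and -142 bp, and whether another gene started nearer was not examined. Of 52 genes of translation initiation and elongation factors 7 had a summit (13.5%), 5 of them within 100 bp. The elongation factor genes eEF5, eEF1alpha1 and eEF2 had ranks of 2803, 2982 and 3653 with summits at 24, -6 and 12 bp, which are in the range of the cytosolic ribosomal protein genes. The strongest peak of the whole list was counted for eIF2Bbeta, 701 bp from its start. Of 6 genes of small nucleolar ribonucleoproteins, which modify ribosomal RNA, Nop56 had a summit at -720 bp, and M1BP, Dref and Trf2, genes of factors known to act at ribosomal protein promoters, had none.

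Motifs were counted in the window of 250 bases before to 50 bases after the outermost start of each gene, in the genome sequence. The TCT initiator was searched as CTTT on the gene's strand with its C within 5 bases of the start. The other motifs were searched on both strands anywhere in the window, and were TATCGATA, the element bound by Dref, GGTCACAC, the core of motif 1 bound by M1BP, TATAAA, the TATA box, GAGAG, bound by GAGA factor, and GCCAT, the core bound by the Polycomb group protein Pho. Matches of different motifs may overlap, and a match is a string of letters and not a measured site.

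The TCT initiator and the Dref element were found in a higher share of ribosomal protein promoters than of all promoters. CTTT at the start was found in 31 of 92 (33.7%, against 5.64% of all genes), and with any annotated start of the gene in 58 (63.0%, against 8.07%), a count added after the first was seen. TATCGATA was found in 28 of 92 (30.4%, against 9.36%) and GGTCACAC in 14 (15.2%, against 7.70%). TATAAA was in 44 (47.8%, against 45.8%), but in 13.0% against 23.9% when the window began 100 bases before the start. GCCAT was in 38 (41.3%, against 41.2%), and GAGAG in 16 (17.4%), below the 29.7% of all genes. No test was made of these shares.

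Within the ribosomal protein genes, motifs were set against the presence of a summit. The TCT initiator was in 39.1% of the 46 genes with a summit and 28.3% of those without, and TATCGATA in 28.3% and 32.6%. GGTCACAC was in 17.4% and 13.0%, TATAAA in 50% and 45.7%, and GCCAT in 47.8% and 34.8%. The exact binomial intervals of each of these pairs overlap. GAGAG was in 12 of 46 (26.1%, interval 14.3% to 41.1%) and 4 of 46 (8.70%, interval 2.42% to 20.8%), and these intervals overlap as well. In other genes with a summit GAGAG was in 41.4%. With the window begun 100 bases before the start, GAGAG was in 15.2% of the genes with a summit and 2.17% of those without. It was then in 27.4% of other genes with a summit. Overlap of separate intervals is not a test of a difference, and none was made. Of the promoters printed above, RpS10b and RpL10Ab both carry TATCGATA, and the first had a summit 1 bp from its start whereas the second had none in the optimal list. RpL34b and RpL14 carry the TCT initiator and a GCCAT core, and RpS27 the core alone.

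**Figure D5:**
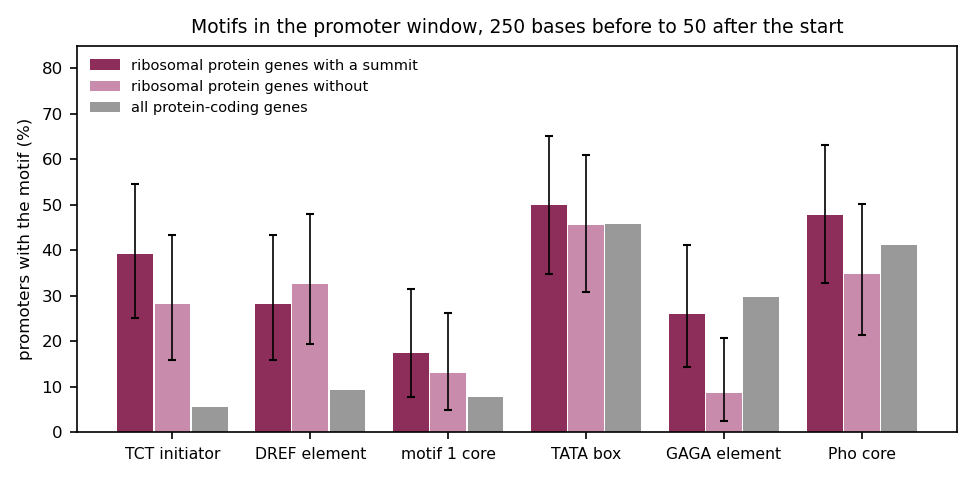
Share of promoters (%) with each motif in the window of 250 bases before to 50 after the outermost start, for ribosomal protein genes with an optimal summit (n = 46), those without (n = 46) and all protein-coding genes (n = 13945); error bars are exact binomial 95% intervals and are not drawn for all genes. The TCT initiator stands at 39.1% and 28.3% against 5.64%, and the GAGA element at 26.1% and 8.70% against 29.7%.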

How the data were processed

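Chromatin bound by E(z)-GFP was sequenced from whole prepupae in 1 group of 3 biological replicates, per the labels. The authors deposited peak lists for dm6 and dm3 with a signal value, a −log10 q-value and a summit offset per peak. Which aligner and peak caller made them, and how signal was scaled for depth, is not given in the sources used here. Because of this, the deposited signal only ranked peaks inside their own list. The deposited −log10 q-values, between 2.87 and 3.97 in the optimal list, entered no result. The lists show no depth per sample, so no precision was derived from it. Only the dm6 lists were used. In the optimal list 16 peaks repeat an interval of another with a different summit, the median width was 424 bp, and 2293 summits lay within 1 kb of a protein-coding TSS.

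A summit was the peak's start plus its summit offset, and coordinates are 1-based dm6. Genes came from Ensembl release 115 with 19607 protein-coding TSSs on 6 arms, and promoter sequence from genome release 6 as held by RefSeq. All 92 ribosomal protein genes had the same coordinates in both annotations, and on 6 of 6 arms the peaks ended within the reference length. A gene had a summit when one lay within 1 kb of any of its TSSs, and its rank was that of the strongest such peak. An exact sign-flip permutation test, two-sided with a threshold of 0.05, ran over the replicates. Python 3.11.15, numpy 2.4.6, pandas 2.3.3, scipy 1.17.1 and matplotlib 3.10.9 were used, and the scripts were tested on simulated data.

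The members and the lists were chosen with earlier results of these data known. Named genes were the 20 best ranked, all copies of families with more than 1 copy, the 3 just inside and the 3 just outside 1 kb, and the first 8 in alphabetical order without a peak in any relaxed list. Some genes under this rule are counted and not reported here by name. The genes of the stalk, the ubiquitin fusions, the other genes without a peak and those with gaps between lists were named after their values were seen. RpS6, RpL3 and RpL5 were also named outside the rule. Promoters shown were those of the 6 best ranked with a summit within 250 bp and the first 2 in alphabetical order without one within 1 kb, leaving out arm 2R. Families were symbols equal after removing a final a or b, -1 or -2, or -like. Alternatives were other distances of 250 bp, 500 bp and 5 kb, the outermost TSS only, peak midpoints, the 2811 peaks of highest signal, peaks found in all replicates, replicate lists of 2811 or 11246 peaks, leaving out each replicate and a shorter promoter window. A distance of 100 bp, the pooled relaxed list and motifs at any annotated start were chosen after seeing the data.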

Additional observations from a re-analysis of the deposited data

How the results depend on the processing

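Ribosomal protein genes with a summit numbered 46 as reported. Under the alternatives run the count lay between 32 (higher-signal part of the list) and 57 (pooled relaxed list). Setting aside replicates 1, 2 and 3 in turn gave 39, 39 and 37. For these 3 counts the optimal list was not called again. It was cut to summits inside a strongest peak of each remaining replicate, which left 3550, 3473 and 4080 of the 5623 peaks. The lower counts thus come with a stricter filter and do not measure the loss of a replicate. The difference from other genes, 37.2 points, ran between 22.4 points (the 2811 strongest peaks) and 39.7 points (without replicate 2) and stayed positive, and with each replicate left out in turn it ran between 32.4 and 39.7 points. The median distance to the TSS ran between 23.5 and 33.5 bp. The difference between large and small subunit genes, 2.05 points, turned to -6.17 points at 5 kb, to -0.617 points with the 2811 strongest peaks and to -0.487 points without replicate 1, with 4.00 points as its highest value without a replicate. It was 4.22 points at 250 bp and 6.69 points at 500 bp. The cause was not tested. Families with more than 1 copy carrying a summit numbered 6 at 5 kb, against 3 as reported. In the window of 100 bases before the start, which is shorter by construction, the motif shares were 13.0% for the TATA box (23.9% of all genes), 8.70% for the GAGA element (18.0% of all genes) and 28.3% for the Pho core (24.6% of all genes). The TATA box was thus near the share of all genes in the longer window and below it in the shorter one. At any annotated start, added after seeing the data, the TCT initiator reached 63.0%. RpS19b had no value within 250 bp, and the ranks of the other 19 best ranked genes were the same there. No paired analysis was possible because the samples form 1 group. The lists are thresholded and show no sequencing depth, and 3 replicates cannot give a two-sided p under 0.25, so no difference here passes 0.05.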
